A study of Mus musculus with 11 samples.

Results

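The genes described here encode proteins of the splicing machinery: 61 of the 19938 genes that the arrays measured with a probe of their own. They were chosen by symbol, as the genes whose names start with Snrp, Sf3a, Sf3b, U2af, Prpf, Srsf or Hnrnp, leaving out Snrpn and pseudogenes. The set holds 10 snRNP proteins, 9 subunits of SF3A and SF3B, 3 U2AF genes, 12 PRPF proteins, 10 SR proteins and 17 hnRNP proteins. RNA came from E8.5 embryos of the CD1 outbred strain, sectioned frozen and captured by laser from neuroepithelium (3 arrays, NE1 to NE3), neural crest (5 arrays, NC1 to NC5) and paraxial mesoderm (3 arrays, PM1 to PM3). All 11 samples are untreated embryos with no engineered allele named in the labels, and every RNA was amplified before it was hybridised to a Mouse Gene ST array. The series speaks of single cells, and the labels give neither the number of cells per capture nor the embryo of origin. A p-value here therefore measures the spread between arrays alone. It is too small where captures of the same tissue share an embryo, and it ignores any pairing where captures of different tissues share one.

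Splicing removes introns from pre-mRNA. The U1 snRNP binds the start of an intron, while U2AF and then the U2 snRNP, with its SF3A and SF3B parts, bind near its end; the U4/U6.U5 tri-snRNP, built with several PRPF proteins, then joins and the complex becomes active. Each of the spliceosomal snRNPs other than U6 carries a ring of Sm proteins (SNRPB, SNRPD, SNRPE, SNRPF and SNRPG), and U6 carries the related LSm ring. SR proteins mostly promote the use of nearby splice sites, and hnRNP proteins coat the transcript and often act against such use. Neural crest cells leave the dorsal neuroepithelium at about this stage, and crest-derived structures of the face are among those affected in several inherited disorders of splicing factors, SNRPB and SF3B4 among them.

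Each deposited value is a ratio of a probe's signal to a reference of the same probe, near its median over the arrays. A ratio of 1 therefore says that an array lies at the middle of the set, and it gives no level: a gene that is silent on every array and a gene expressed evenly on every array both sit near 1. For the same reason no gene's ratio can be set against another gene's as a level. A gene is called high below where its ratio was at least 4 on an array, and low where its ratio was at least 4-fold below 1. The lowest ratio in the table is 0.01. In captured tissue, fewer cells expressing a gene and less of its RNA per cell cannot be told apart.

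The arrays carried the marker genes of their labels only in part. Of 8 crest markers, Snai1, a regulator of crest cells leaving the epithelium, had ratios of 41.2 to 82.1 on the 5 crest arrays and was the only one high on all 5. Sox9, Sox10, Tfap2b and Twist1 were high on some crest arrays, Tfap2b also on NE3 (22.6) and Twist1 also on NE2 (5.92), Foxd3 reached 3.99 on NC4, and Tfap2a and Ets1 stayed within 2-fold throughout. Of 8 neuroepithelium markers, the epithelial gene Epcam had ratios of 37.4 to 41.9 on the 3 neuroepithelium arrays and was the only one high on all 3. Sox1, Sox3, Pax6 and Cdh2 stayed within 2-fold on all arrays, Sox2 reached 2.70 on PM3, Nes was high on NC3 (8.48), and Otx2 was high on NE3 (112) and PM2 (53.6). The 7 paraxial mesoderm markers measured all stayed within 2-fold of their reference on all 11 arrays, so the mesoderm label was not borne out by ratios. On PM1 all 6 red blood cell markers were high, with a mean log2 ratio of 6.48 against -0.0611 to 0.145 on the other 10 arrays. Surface ectoderm markers were high on NE1 to NE3 (2, 4 and 2 of 7), on PM2 (3 of 7) and on NC3 and PM3 (1 of 7 each). On PM2 these were the keratins Krt8, Krt18 and Krt19, with Cdh1, Grhl3, Wnt6 and Trp63 near 1. Of 5 gut endoderm markers, Cldn6 was high on NE3 (14.3) and PM2 (25.1), and Foxa2 on PM3 (7.64). Of 4 notochord markers, Nog was high on PM3 (9.63).

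Many of the splicing genes lay far from their reference on single arrays. Of the 61, 22 (36.1%) were high on 1 or more arrays, against 21.7% of all 19938 genes, and 19 (31.1%) were low on 1 or more, against 4.77% of all genes. The number that stayed within 2-fold on all 11 arrays was 16 (26.2%), against 71.8% of all genes, a group that includes genes silent everywhere. A set of 121 other splicing genes, in lists of LSm, snRNP assembly, kinase, exon junction and regulator genes, gave similar shares: 57 (47.1%) were high, 32 (26.4%) were low and 26 (21.5%) stayed within 2-fold. These shares are descriptions, and no test was made of their difference. The shares of all genes, here and below, also count genes silent on every array, which cannot be high or low. No background matched for expression was used. Only Sf3b1, the large SF3B subunit that holds the branch point region, was both high (5.24 on NE3, 5.44 on PM1) and low (0.248 on NE2).

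**Figure D1:**
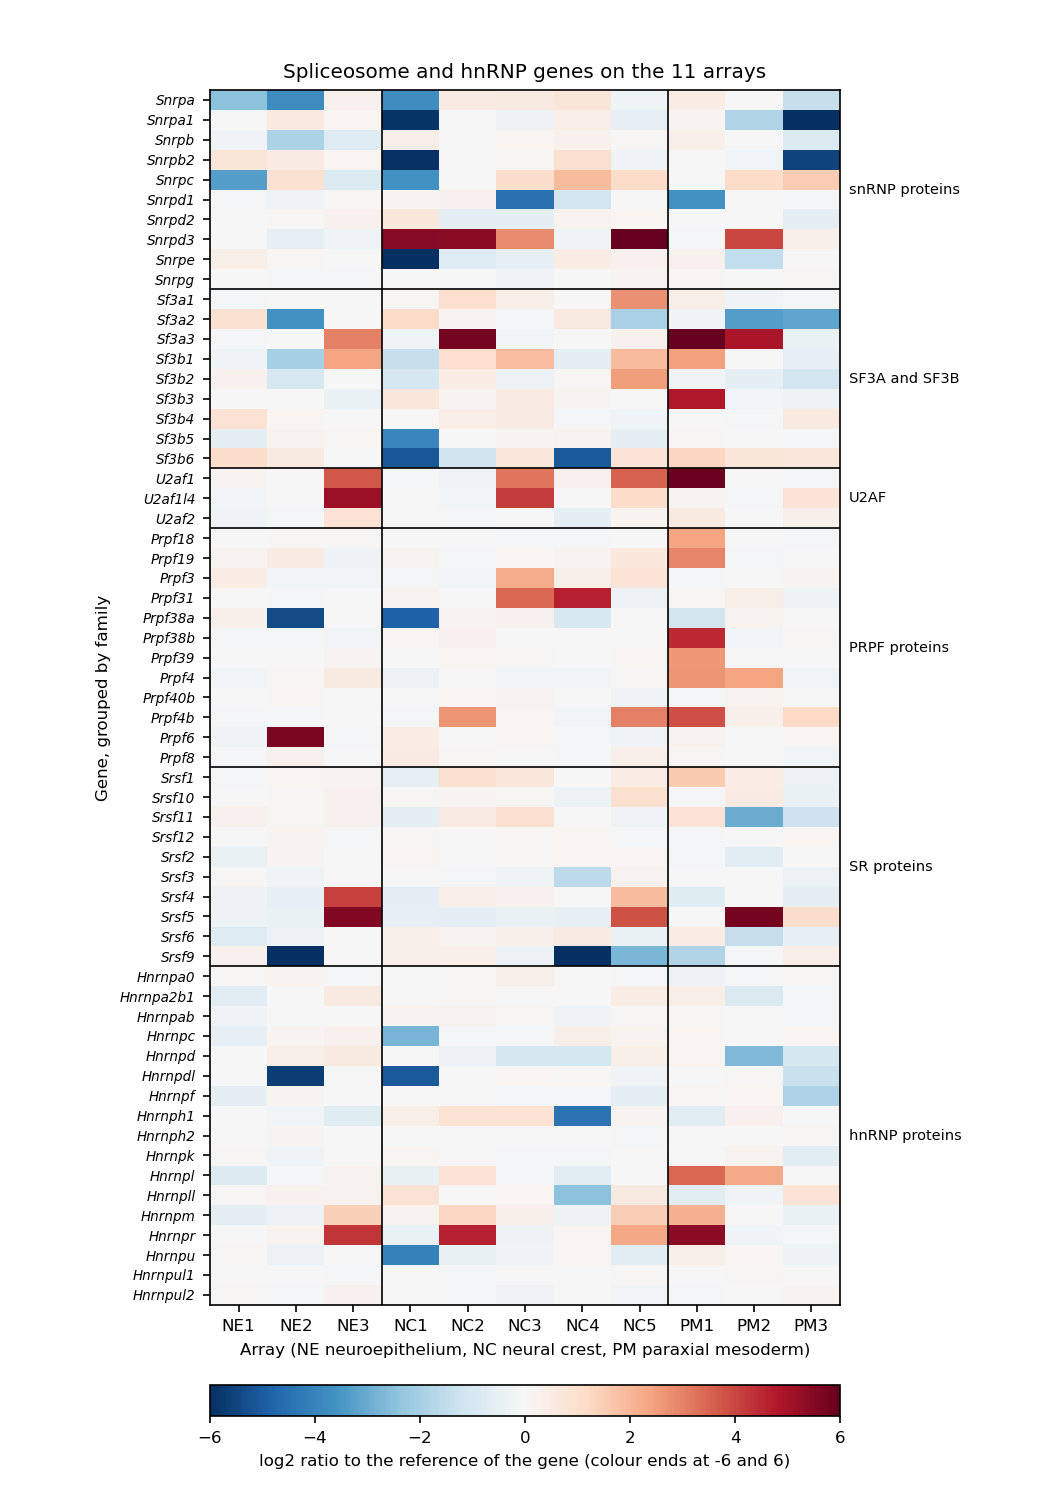
Log2 ratio of each of the 61 genes (rows, by family) on each of the 11 arrays (columns, by tissue), in colour from -6 (blue) to 6 (red). Strong colour stands in single cells of the plot or on a few arrays of a row. In no row do all columns of 1 tissue share it, though Snrpd3 is high on every crest column but NC4.

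The direction of these excursions is given by family, as counts with no test. With a reference near the median, signal present on few arrays reads as high, and signal missing from few arrays reads as low. The counts therefore do not say that a family was raised or lowered. Among the 12 PRPF genes 9 were high somewhere and 1 was low, among the 9 SF3A and SF3B genes 5 were high and 4 low, and among the 3 U2AF genes 2 were high. Among the 10 snRNP genes 1 was high and 6 were low, and among the 17 hnRNP genes 3 were high and 6 low. The SR genes were balanced at 2 high and 2 low of 10. Of the 19 low genes 9 were low on 1 array, 7 on 2 and 3 on 3. Of the 22 high genes 11 were high on 1 array. The reference is near each probe's median, so a gene could not be high, or low, on most of the arrays behind that median. Snrpd3 was high on 5 arrays, the most of any of the 61.

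**Figure D2:**
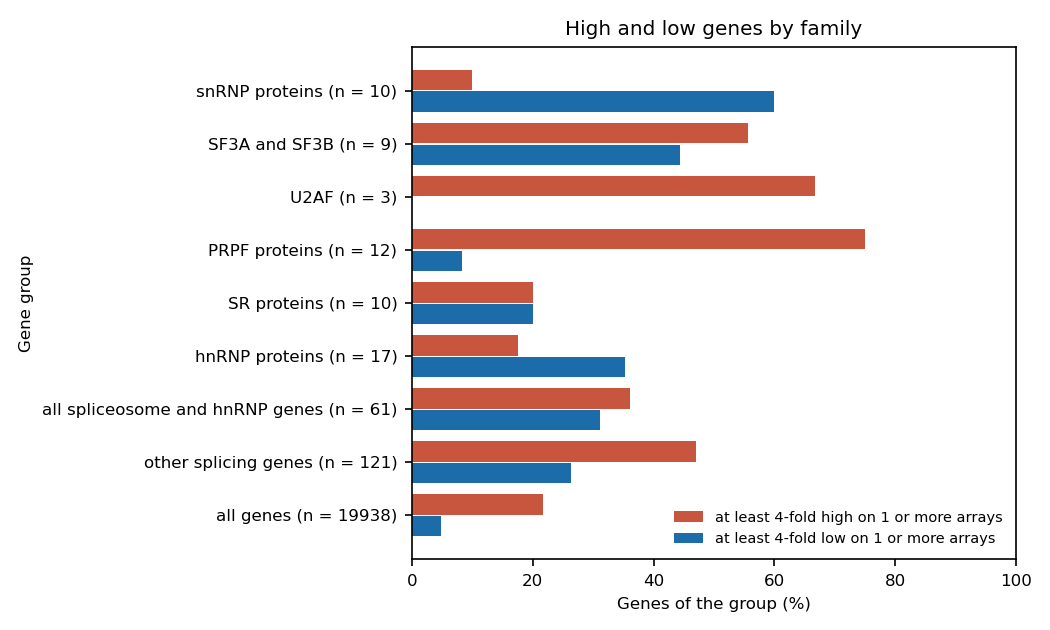
Percent of each gene group that was at least 4-fold high (red) or at least 4-fold low (blue) on 1 or more of the 11 arrays, with the number of genes in brackets. PRPF genes reach 75% high and 8.33% low, snRNP genes 10% high and 60% low, and all genes 21.7% and 4.77%. High and low are relative to each gene's own reference, near its median, and give no level.

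The Sm ring proteins of the snRNPs gave different patterns from one another. Snrpd3 had ratios of 1, 0.719 and 0.840 on NE1 to NE3, of 43.9, 42.0, 7.22, 0.834 and 63.1 on NC1 to NC5, and of 0.921, 16.0 and 1.25 on PM1 to PM3. It was high on every crest array but NC4, which lay inside the neuroepithelium range, so the tissues overlapped. Its mean log2 ratio was 3.88 ± 2.62 (SD, n = 5) in crest, -0.24 ± 0.24 (SD, n = 3) in neuroepithelium and 1.40 ± 2.26 (SD, n = 3) in mesoderm. The crest minus neuroepithelium difference of 4.13 (SE 1.51) had an adjusted p of 1 in limma, with an unadjusted p of 0.0236. Snrpb, which encodes the SmB proteins, had ratios of 0.853, 0.271 and 0.582 in neuroepithelium, of 1.33, 1.03, 1.08, 1.20 and 1.05 in crest, and of 1.23, 1 and 0.568 in mesoderm. Every crest array was above every neuroepithelium array. The difference of 1.15 (SE 0.36) in log2 ratio had an adjusted p of 1 in limma, with an unadjusted p of 0.0121, and was 0.69 without NE2.

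Other Sm genes were low on single arrays or stayed near their reference. Snrpe, for SmE, was at the lowest ratio of the table, 0.01, on NC1 and between 0.359 and 1.34 on the other 10 arrays. Snrpd1, for SmD1, was low on NC3 (0.0449) and PM1 (0.0817) and also reduced on NC4 (0.449). Snrpd2 and Snrpg, for SmD2 and SmG, stayed within 2-fold throughout, at 0.673 to 1.56 and 0.859 to 1.14. So on NC1, where Snrpd3 was at 43.9 and Snrpe at 0.01, Snrpd1, Snrpd2, Snrpg and Snrpb lay between 1.00 and 1.56.

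Snrpa1 and Snrpb2 encode the A′ and B″ proteins of the U2 snRNP, which bind each other and the U2 snRNA. Snrpa1 had ratios of 1, 1.49 and 1.08 in neuroepithelium, 0.0170, 0.996, 0.786, 1.30 and 0.722 in crest, and 1.11, 0.283 and 0.01 in mesoderm. Snrpb2 had ratios of 1.65, 1.39 and 1.09 in neuroepithelium, 0.0163, 1.00, 1.06, 1.93 and 0.857 in crest, and 1, 0.881 and 0.0211 in mesoderm. Both were low on NC1 and PM3 and on no other array. Snrpb2 was lower on each mesoderm array than on each neuroepithelium array, with a difference of -2.36 (SE 1.97), and that of Snrpa1 was -3.00 (SE 1.98); both had an adjusted p of 1.00 in limma, and without PM3 they were -0.53 and -1.07. Of the U1 genes, Snrpa was low on NE1 (0.183), NE2 (0.0724) and NC1 (0.0748), and Snrpc was low on NE1 (0.102) and NC1 (0.0805). Snrpc was at 1.88 on NE2, where Snrpa was low. Snrpa and Snrpc had means 1.54 (SE 1.22) and 1.15 (SE 1.33) higher in crest, and 1.67 (SE 1.36) and 1.94 (SE 1.49) higher in mesoderm, than in neuroepithelium. Snrpe, Snrpa1 and Snrpb2 had crest minus neuroepithelium differences of -1.57 (SE 1.49), -1.49 (SE 1.77) and -1.46 (SE 1.76), which were -0.27, -0.34 and -0.24 without NC1. None of these passed the test.

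Among genes high or low on more than 1 array, 3 pairs shared exactly the same set of arrays. These were Snrpa1 with Snrpb2 (low on NC1 and PM3), Hnrnpdl with Prpf38a (low on NE2 and NC1), and Hnrnpl with Prpf4 (high on PM1 and PM2). Hnrnpdl, a paralogue of the RNA-binding protein hnRNP D, had ratios of 0.0202 on NE2 and 0.0300 on NC1, and Prpf38a, which is needed for activation of the spliceosome, had 0.0240 and 0.0344. On the other 9 arrays Hnrnpdl lay between 0.399 and 1.08 and Prpf38a between 0.462 and 1.24. How many of all genes share one of these sets of arrays was not counted. Over all genes, deviations from the tissue means correlated at 0.169 between NC1 and PM3 and at 0.158 between NE2 and NC1. Those were the highest values between arrays of different tissues. NC1, PM3 and NE2 also had the largest shares of all genes low, at 2.52%, 2.27% and 2.03%. Among genes high or low on 1 array, Snrpe, Hnrnpu, Sf3b5 and Hnrnpc were low on NC1 only, and Sf3b3, Prpf38b, Prpf19, Hnrnpm, Prpf39 and Prpf18 were high on PM1 only. Sf3a1 and Sf3b2 were high on NC5 only, Hnrnph1 and Hnrnpll were low on NC4 only, and Hnrnpd and Srsf11 were low on PM2 only. The bases just before the start of the 6 genes in the 3 pairs are shown because the genes of each pair stood off on the same arrays. They are 250 bases upstream of a transcript start in RefSeq on GRCm38.p6, written 5′ to 3′ on the strand of the gene, with capitals for any match on either strand to the CCAAT box, to GGGCGG (the core of the GC box), to CCGGAAG (a core that ETS proteins bind) or to TATAAA (the TATA box).
Snrpa1, chr7:66060086-66060335, plus strand: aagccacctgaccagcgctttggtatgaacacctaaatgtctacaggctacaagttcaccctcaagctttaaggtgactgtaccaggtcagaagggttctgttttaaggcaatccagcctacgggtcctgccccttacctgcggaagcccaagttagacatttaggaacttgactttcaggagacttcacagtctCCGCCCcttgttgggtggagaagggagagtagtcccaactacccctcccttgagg
Snrpb2, chr2:143062819-143063068, plus strand: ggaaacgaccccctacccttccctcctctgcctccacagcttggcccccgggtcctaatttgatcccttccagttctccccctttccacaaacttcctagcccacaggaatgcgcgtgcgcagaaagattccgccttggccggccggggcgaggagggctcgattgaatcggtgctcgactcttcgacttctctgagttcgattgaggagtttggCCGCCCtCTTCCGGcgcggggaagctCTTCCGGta
Hnrnpdl, chr5:100039223-100039472, minus strand: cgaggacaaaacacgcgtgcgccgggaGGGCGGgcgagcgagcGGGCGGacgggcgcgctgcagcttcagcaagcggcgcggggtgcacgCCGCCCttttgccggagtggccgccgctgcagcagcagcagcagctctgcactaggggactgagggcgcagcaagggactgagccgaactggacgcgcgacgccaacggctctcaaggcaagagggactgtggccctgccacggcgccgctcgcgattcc
Prpf38a, chr4:108579337-108579586, minus strand: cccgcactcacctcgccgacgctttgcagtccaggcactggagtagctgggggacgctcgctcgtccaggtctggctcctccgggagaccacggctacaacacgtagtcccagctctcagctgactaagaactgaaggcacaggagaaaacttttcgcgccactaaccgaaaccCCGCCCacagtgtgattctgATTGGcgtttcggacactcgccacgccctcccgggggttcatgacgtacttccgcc
Hnrnpl, chr7:28810640-28810889, plus strand: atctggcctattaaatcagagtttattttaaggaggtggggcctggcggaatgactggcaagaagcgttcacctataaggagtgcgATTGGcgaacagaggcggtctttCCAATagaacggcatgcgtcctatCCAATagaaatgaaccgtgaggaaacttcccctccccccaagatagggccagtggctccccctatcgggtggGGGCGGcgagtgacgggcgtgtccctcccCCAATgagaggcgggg
Prpf4, chr4:62408533-62408782, plus strand: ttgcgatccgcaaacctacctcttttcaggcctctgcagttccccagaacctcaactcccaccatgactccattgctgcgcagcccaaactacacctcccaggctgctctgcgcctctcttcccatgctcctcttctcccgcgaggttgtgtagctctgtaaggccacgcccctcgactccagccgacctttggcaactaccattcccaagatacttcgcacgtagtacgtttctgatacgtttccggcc
None of the 3 pairs shared the same counts of these motifs. The Hnrnpl stretch held 4 CCAAT and 1 GGGCGG, and the Prpf4 stretch held no match. Snrpa1 held 1 GGGCGG, and Snrpb2 held 1 GGGCGG and 2 CCGGAAG. Hnrnpdl held 3 GGGCGG in a stretch of 72% G and C, and Prpf38a held 1 CCAAT and 1 GGGCGG. The TATA box letters were in none of the 6, and no match overlapped another.

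Over the whole set, promoter sequences were found for 53 of the 61 genes, with 71 transcript starts; Hnrnpll, Hnrnpul2, Prpf18, Sf3b4, Sf3b5, Snrpb, Snrpd1 and U2af2 had no entry. GGGCGG was in 64.8% of these 71 stretches and in 32.7% of all 32851 mouse promoters of that length. CCGGAAG was in 29.6% against 6.91%, and CCAAT in 46.5% against 33.8%. TATAAA was in 7.04% against 12.4%. A match of letters is a description and shows no binding.

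The SF3 and U2AF genes, which recognise the branch point and the end of the intron, held some of the widest ranges. Sf3a3 had ratios of 0.955, 0.971 and 8.16 in neuroepithelium, 0.829, 54.1, 0.904, 1 and 1.21 in crest, and 67.4, 30.3 and 0.760 in mesoderm. High arrays were present in every tissue, and so were arrays near 1. Its mesoderm minus neuroepithelium difference was 2.56 (SE 2.08) and its crest minus mesoderm difference -2.41 (SE 1.86), each with an adjusted p of 1.00 in limma. The other SF3A subunits did not follow it: Sf3a1 was high on NC5 alone (6.74), and Sf3a2 was low on NE2 (0.0794), PM2 (0.102) and PM3 (0.113). On PM2 the SF3A complex thus had Sf3a3 at 30.3, Sf3a1 at 0.853 and Sf3a2 at 0.102. Sf3a1 was higher on each crest array (1.02 to 6.74) than on each neuroepithelium array (0.960 to 1.01), with a difference of 0.86 (SE 0.57) that was 0.39 without NC5. Sf3a2 was higher in crest than in mesoderm by 2.17 (SE 1.18), with overlapping arrays.

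Among the SF3B genes, Sf3b6, whose protein contacts the branch point adenosine, was low on NC1 (0.0290) and NC4 (0.0303) and between 0.439 and 2.47 elsewhere. Its differences were -2.51 (SE 1.46) for crest minus neuroepithelium and -2.88 (SE 1.46) for crest minus mesoderm, with adjusted p of 1 and 1.00 in limma. Sf3b5 was low on NC1 (0.0667), Sf3b3 was high on PM1 (27.7) and Sf3b2 was high on NC5 (5.60). U2af1, the subunit of U2AF that reads the AG at the intron end, was high on NE3 (13.3), NC3 (9.40), NC5 (11.8) and PM1 (59.7) and between 0.866 and 1.21 on the other 7 arrays. Its paralogue U2af1l4 was high on NE3 (35.5) and NC3 (18.0), which are arrays on which U2af1 was high too. U2af2, the subunit that reads the pyrimidine tract, stayed within 2-fold, at 0.698 to 1.82. None of the 9 SF3 and 3 U2AF genes passed the test in any comparison.

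Of the 9 high PRPF genes 6 were high on 1 array only. Prpf8, the U5 protein at the catalytic centre, stayed at 0.901 to 1.41, and Prpf40b at 0.846 to 1.15. Prpf6, a tri-snRNP bridge, was high on NE2 alone (50.9) and between 0.857 and 1.34 on the others. Its differences of -1.72 (SE 1.18) for crest and -1.69 (SE 1.32) for mesoderm against neuroepithelium turned to 0.23 and 0.25 without NE2. Prpf31, which with Prpf6 links U4/U6 to U5, was high on NC3 (10.9) and NC4 (25.7) and between 0.799 and 1.29 on all other arrays. Crest exceeded neuroepithelium by 1.65 (SE 1.14) and mesoderm by 1.55 (SE 1.14) for Prpf31, adjusted p of 1 and 1.00 in limma, and the tissues overlapped. Prpf3, another U4/U6 protein, was high on NC3 alone (4.75).

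Prpf4, the U4/U6 partner of Prpf3, was the only one of the 61 to be called with any array left out. Its ratios were 0.897, 1.06 and 1.46 in neuroepithelium, 0.786, 1, 0.882, 0.901 and 1.04 in crest, and 6.29, 5.09 and 0.886 in mesoderm. PM1 and PM2 were above all 8 arrays of the other tissues, and PM3 lay within their range. Mesoderm exceeded crest by 1.73 (SE 0.56) in log2 ratio, adjusted p of 1.00 in limma, and exceeded neuroepithelium by 1.46 (SE 0.63). Without PM3 these differences were 2.62 (SE 0.19, adjusted p = 0.00107 in limma) and 2.35 (SE 0.21, adjusted p = 0.00444 in limma), so 1 array decided this call. Calls over all 19938 genes rose too without PM3, from 2 to 43 against crest and from 3 to 39 against neuroepithelium. Red blood cell markers were high on PM1. On PM2 the keratins Krt8, Krt18 and Krt19 and the gut endoderm marker Cldn6 were high. PM3 also held high markers of other tissues: Krt8 (30.5), Foxa2 (7.64) and Nog (9.63). The part of other tissues in the Prpf4 ratios was not tested on any of these arrays. Prpf4b, a kinase that acts on PRPF proteins, was higher on each mesoderm array (14.7, 1.25 and 2.26) than on each neuroepithelium array (0.957, 0.926 and 1), by 1.85 (SE 1.14), and was high on NC2 (6.27) and NC5 (8.18). Prpf38b was high on PM1 (22.2) and otherwise between 0.898 and 1.19; its 5 crest arrays (1 to 1.19) lay just above its 3 neuroepithelium arrays (0.907 to 0.965), by 0.20 (SE 0.91).

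Of the 16 genes that stayed within 2-fold, 7 were hnRNP genes. Hnrnpul1 (0.937 to 1.06), Hnrnph2 (0.947 to 1.10) and Hnrnpab (0.868 to 1.14) were 3 of the 5 narrowest of the 61, beside Srsf12 (0.913 to 1.11) and Snrpg. Hnrnpl, which represses exons through CA-rich RNA, had ratios of 0.570, 0.916 and 1.14 in neuroepithelium, 0.736, 1.80, 0.938, 0.649 and 1.03 in crest, and 10.8, 4.84 and 0.981 in mesoderm. As for Prpf4, PM1 and PM2 stood above all other arrays and PM3 did not. Mesoderm exceeded neuroepithelium by 2.14 (SE 0.78) and crest by 1.95 (SE 0.70), with adjusted p of 1.00 for both in limma; without PM1 the first was 1.37. Hnrnpr was high on NE3 (19.4), NC2 (24.6), NC5 (5.02) and PM1 (41.2) and near 1 on the rest (0.766 to 1.16), so each tissue held high and unmoved arrays. Hnrnpm was highest on the same 4 arrays, at 2.71, 2.39, 2.75 and 4.36, with the rest between 0.685 and 1.24.

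Low ratios among hnRNP genes were spread over arrays. On NC1, Hnrnpc, whose protein packages nascent transcripts, was at 0.143 and Hnrnpu, the scaffold attachment factor, at 0.0592. On NC4, Hnrnph1 was at 0.0462 and Hnrnpll at 0.183. Hnrnpd, which binds AU-rich RNA, had ratios of 1, 1.28 and 1.46 in neuroepithelium and of 1.10, 0.159 and 0.486 in mesoderm. Its mesoderm minus neuroepithelium difference was -1.49 (SE 0.65), adjusted p of 1.00 in limma, with PM1 inside the neuroepithelium range.

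Of the SR genes, Srsf9 had the lowest ratios: 0.0119 on NE2, 0.0126 on NC4 and 0.147 on NC5, with 0.290 on PM1 and 0.779 to 1.30 on the other 7 arrays. Srsf5 was high on NE3 (46.6), NC5 (14.3) and PM2 (53.1), at 2.08 on PM3 and between 0.671 and 1 on the others. Its crest minus mesoderm difference was -1.88 (SE 1.85), and -0.15 without PM2. Srsf4 was high on NE3 alone (17.0), and its mesoderm minus neuroepithelium difference of -1.52 (SE 1.14) was -0.02 without NE3. Srsf11 was low on PM2 (0.125) and lower in mesoderm than in crest by 1.28 (SE 0.73), or by 0.36 without PM2. Srsf1, Srsf2, Srsf3, Srsf6, Srsf10 and Srsf12 were neither high nor low on any array.

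**Figure D3:**
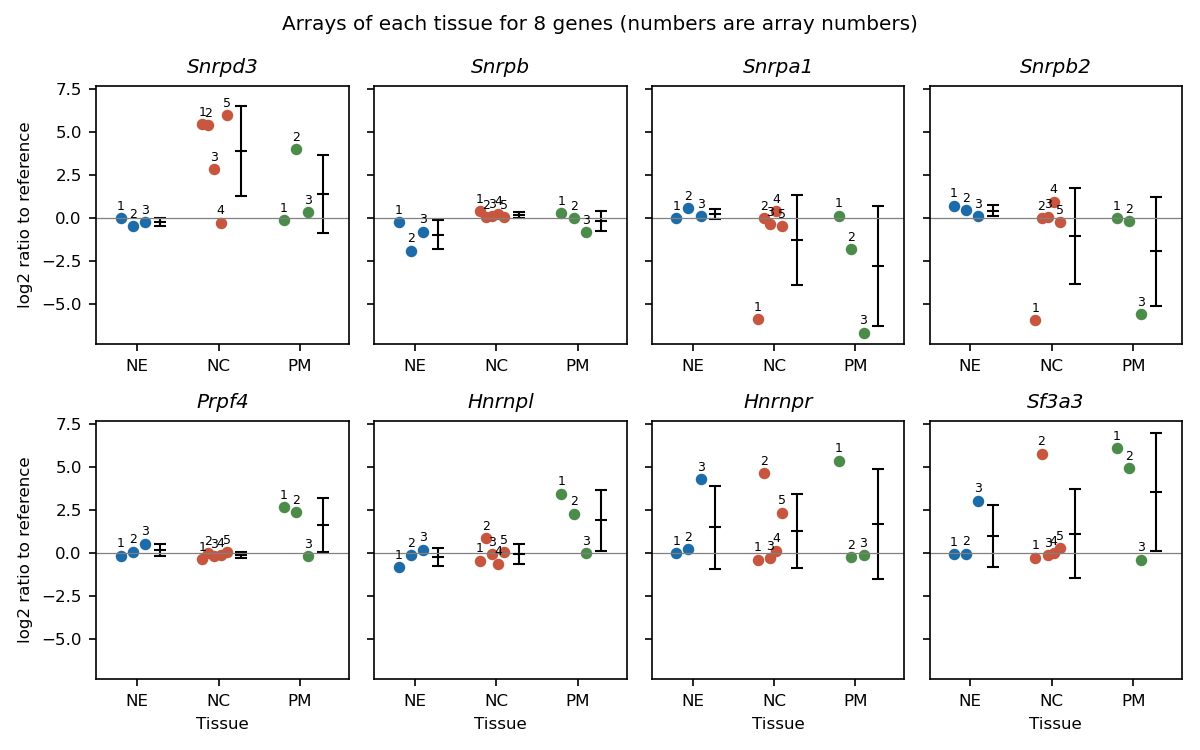
Log2 ratio of 8 genes on every array (points, numbered by array) in neuroepithelium (NE), neural crest (NC) and paraxial mesoderm (PM), with the mean and SD of each tissue beside them. Snrpb alone of these 8 has all crest points above all neuroepithelium points, and Prpf4 and Hnrnpl have PM1 and PM2 apart from PM3.

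Tested by tissue, none of the splicing genes passed the threshold with all 11 arrays. For crest minus neuroepithelium limma called 0 of 61, where 0.0301% of all genes were called, and 2 had an unadjusted p under 0.05 (2.79% of all genes). For crest minus mesoderm it called 0 of 61 (0.0100% of all genes), with 2 under 0.05 unadjusted (2.89% of all genes), and for mesoderm minus neuroepithelium 0 of 61 (0.0150% of all genes), with 3 under 0.05 unadjusted (2.48% of all genes). The F test over all 3 tissues called 0 of 61 (0.0301% of all genes) and had 3 at an unadjusted p under 0.05 (2.57% of all genes): Hnrnpl, Prpf4 and Snrpb. The median difference of the 61 genes was 0.03 for crest minus neuroepithelium, -0.04 for crest minus mesoderm and 0.09 for mesoderm minus neuroepithelium, against 0.000531, 0.00240 and -0.00277 over all genes. The number higher in the first tissue was 34, 27 and 33 of 61 in that order.

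Large mean differences were frequent, and in most of them the arrays of the tissues overlapped. Mean ratios differed at least 2-fold for 12 of 61 genes (19.7%; all genes 10.8%) between crest and neuroepithelium, for 15 (24.6%; 11.7%) between crest and mesoderm, and for 21 (34.4%; 12.9%) between mesoderm and neuroepithelium. Groups did not overlap for 3, 0 and 3 of the 61, where 2.98%, 2.66% and 6.85% of all genes had groups apart. These were Snrpb, Sf3a1 and Prpf38b, all higher in crest than in neuroepithelium (1.45% of all genes), Prpf4b and Snrpg higher in mesoderm than in neuroepithelium (2.82%), and Snrpb2 lower (4.02%). Snrpg differed by only 0.12 (SE 0.09). The counts rest on single arrays. Leaving out NE1 or NC4 gave 8 of 61 for crest against neuroepithelium (7.17% and 5.05% of all genes), and leaving out NC5 gave 5 (6.57%). For crest against mesoderm it was 8 without PM1 (7.83%), 5 without PM3 (7.90%), 3 without NC5 (5.30%), 2 without PM2 (7.86%), and 1 without NC2 (3.87%) or NC4 (4.24%). For mesoderm against neuroepithelium it was 14 without PM1 (18.5%), 13 without PM3 (17.2%), 10 without NE1 (14.1%), 8 without NE2 (15.4%), and 7 without NE3 (15.6%) or PM2 (15.8%). With any of these arrays left out the share of all genes with groups apart also lay above the 6.85% of the full set. Of the 34 differences named by rule, 28 moved by over 1.5 times with 1 array left out.

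The number of high and low splicing genes varied between arrays of the same tissue. On NC1 11 of the 61 were low (18.0%), against 2.52% of all genes: Snrpa, Snrpa1, Snrpb2, Snrpc and Snrpe, then Sf3b5, Sf3b6, Prpf38a, Hnrnpc, Hnrnpdl and Hnrnpu. The other crest arrays had 0 low on NC2 (all genes 0.366%), 1 on NC3 (0.692%), 4 on NC4 (1.49%) and 1 on NC5 (0.336%). On PM1 13 of 61 were high (21.3%), against 8.11% of all genes, and 6 of them were PRPF genes: Prpf4, Prpf4b, Prpf18, Prpf19, Prpf38b and Prpf39. PM2 had 5 high (4.03%), and PM3 had 0 (1.91%), so arrays of 1 tissue lay at opposite ends. Low genes numbered 1 on PM1 (0.542%), 3 on PM2 (1.10%) and 3 on PM3 (2.27%). Among crest arrays NC1 and NC4 had 1 high gene each (2.06% of all genes on either), NC2 had 4 (5.81%), NC3 5 (5.34%) and NC5 7 (7.52%). NE1 had 0 high (3.69%) and 2 low (0.757%), NE2 had 1 high (2.91%) and 6 low (2.03%), and NE3 had 7 high (5.63%) and 0 low (0.507%). Of the 121 other splicing genes 15.7% were low on NC1 and 14.0% on PM3, and 22.3% were high on PM1 and 20.7% on NC5. Red blood cell markers were high on PM1 only, and their part in its 13 high splicing genes was not tested.

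**Figure D4:**
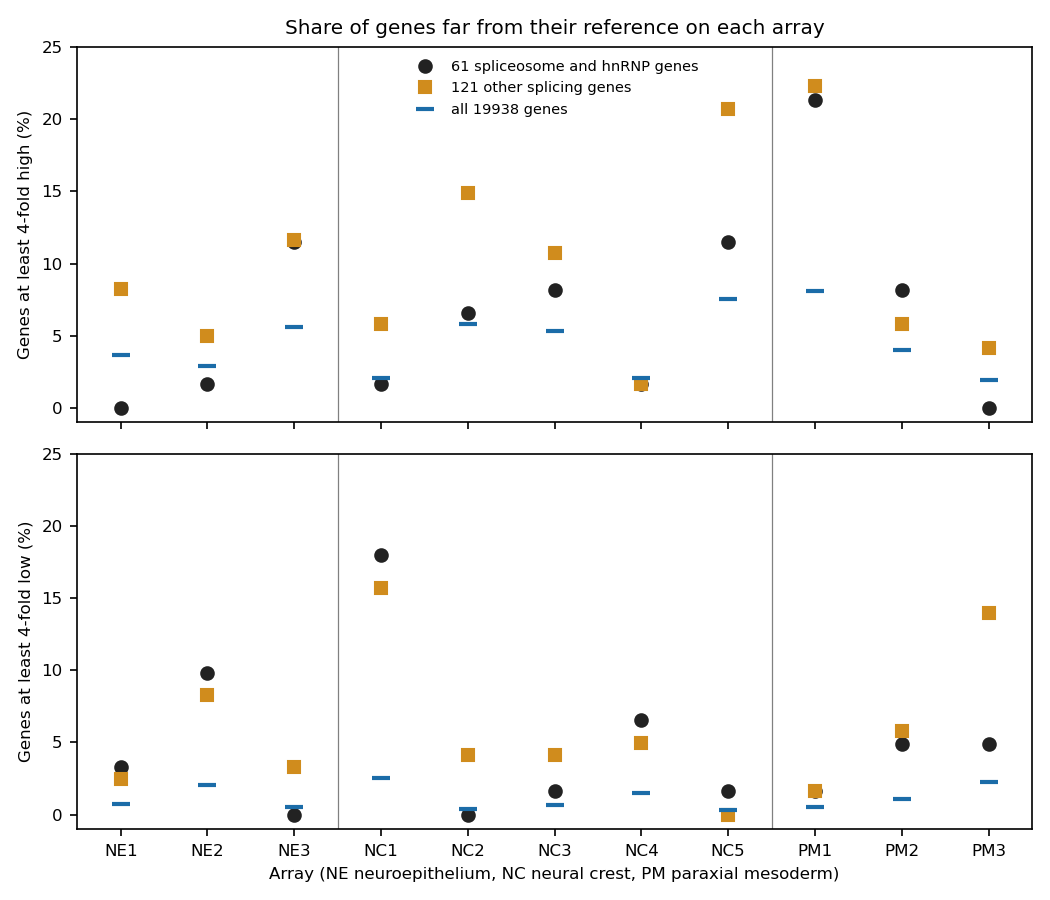
Percent of genes at least 4-fold high (top) or at least 4-fold low (bottom) on each array, for the 61 genes (circles), 121 other splicing genes (squares) and all 19938 genes (bars). The 61 genes reach 18.0% low on NC1 and 21.3% high on PM1, and arrays of 1 tissue lie apart.

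Genes that build the snRNPs also held wide ranges. Among 15 snRNP assembly genes, 0 were called in any comparison by limma, with 0, 0 and 1 at an unadjusted p under 0.05 in the same order as above. Gemin2, whose protein holds the Sm proteins during assembly, had ratios of 67.7, 35.9, 0.923, 1 and 13.5 on NC1 to NC5 and of 0.928 to 1.36 on the other 6 arrays; its crest minus neuroepithelium difference was 3.05 (SE 1.43). Its 3 high arrays, NC1, NC2 and NC5, were also those on which Snrpd3 was highest. Wdr77, part of the complex that methylates Sm proteins, was low on NE1 to NE3 (0.201, 0.0415 and 0.0610) and at 0.983, 1.75 and 1 on PM1 to PM3, groups that do not overlap, with a difference of 3.91 (SE 1.47). It was also low on NC1 (0.0278). Phax, the export adaptor for snRNAs, had the most negative mesoderm minus neuroepithelium difference of the list, -3.24 (SE 1.76).

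Among 45 further spliceosome genes 0 were called, with 1, 2 and 1 at an unadjusted p under 0.05. Lsm3 and Lsm8, of the U6 ring, had ratios of 31.4, 32.2 and 15.7 and of 20.3, 24.2 and 11.2 on the 3 neuroepithelium arrays. On NC1 to NC5 Lsm3 was at 0.188, 0.546, 5.56, 0.296 and 23.1, and on PM1 to PM3 at 9.47, 18.0 and 1. Lsm8 was at 0.136, 6.95, 12.9, 0.313 and 20.9 on NC1 to NC5, with NC3 and NC5 inside its neuroepithelium range. On PM1 to PM3 Lsm8 was at 1, 3.44 and 0.142, below every neuroepithelium array, with a difference of -4.49 (SE 2.05). Lsm3 differed by -4.26 (SE 1.67) between crest and neuroepithelium. The ring did not move as 1 unit: Lsm2 stayed between 0.404 and 1.24, and Lsm5 was low on NC3, NC4 and PM3 (0.0488, 0.0147 and 0.01). The other extreme genes of this list were Isy1, at 2.62 (SE 2.02) for crest and 2.55 (SE 2.26) for mesoderm against neuroepithelium.

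The remaining lists also gave 0 calls in limma in each comparison. Over all 121 genes, 3, 4 and 5 had an unadjusted p under 0.05 and 3, 3 and 8 had groups apart (2.48%, 2.48% and 6.61%, near the shares of all genes). Of 15 kinases and partners of SR proteins, Tra2b had -2.50 (SE 1.09) and Tra2a 1.64 (SE 1.92) for mesoderm minus neuroepithelium, and Rsrc1 2.23 (SE 1.91) for crest minus mesoderm; Clk4 had 1.03 (SE 1.23) for crest minus neuroepithelium. Of 22 regulators of tissue-specific splicing, Celf2 had differences of -1.40 (SE 0.84) for crest and -1.47 (SE 0.94) for mesoderm against neuroepithelium. Elavl1 had 1.62 (SE 1.30) for crest and Celf1 2.01 (SE 1.34) for mesoderm against neuroepithelium. The Celf differences rest on single arrays: Celf2 was high on NE1 alone (18.3) and Celf1 on PM1 alone (62.55), and both were near 1 elsewhere. Esrp1, an epithelial regulator, was high on NE2 alone (5.64), the array with the most surface ectoderm markers. Krt8 and Krt18 were also high on NE1 and NE3, where Esrp1 was at 0.994 and 1.03. A link between Esrp1 and these markers was not tested. Of 14 proteins related to hnRNPs, Syncrip had -1.78 (SE 1.64) and Matr3 1.61 (SE 1.74) for mesoderm minus neuroepithelium. Raly had 1.12 (SE 0.46) for crest minus mesoderm. Of 6 exon junction genes, Eif4a3 had 2.00 (SE 0.91) and Alyref -1.92 (SE 1.10) for crest minus mesoderm, and Rnps1 1.98 (SE 1.17) for mesoderm minus neuroepithelium. Of 4 minor spliceosome genes, Pdcd7 was high on NC2, NC3 and NC5 (10.3, 21.3 and 11.8), at 2.44 (SE 1.05) above neuroepithelium, and Zmat5 had 2.13 (SE 1.87) for mesoderm minus neuroepithelium.

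Probes of the same gene did not always give the same ratio. The array had more than 1 probe for 11 of the 61 genes, and the one with the highest mean log2 ratio was used. For Hnrnpf the probe used was at 0.278 on PM3 and 0.959 on NC4, while the other 3 probes reached 0.0154 on PM3 and 0.102 to 0.238 on NC4. For Srsf10 the second probe was low on NC4 (0.0198) and PM3 (0.0203), where the probe used was at 0.771 and 0.760. For Sf3b4 the second probe was low on NC4 (0.0891), where the probe used was at 0.950. Srsf3 and Snrpc differed by at most 2.47 and 2.18 in log2 ratio between probes, and the other 6 genes by at most 1.01. Taking the probe with the lowest mean gave 22 low genes in place of 19 and 14 within 2-fold in place of 16.

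**Figure D5:**
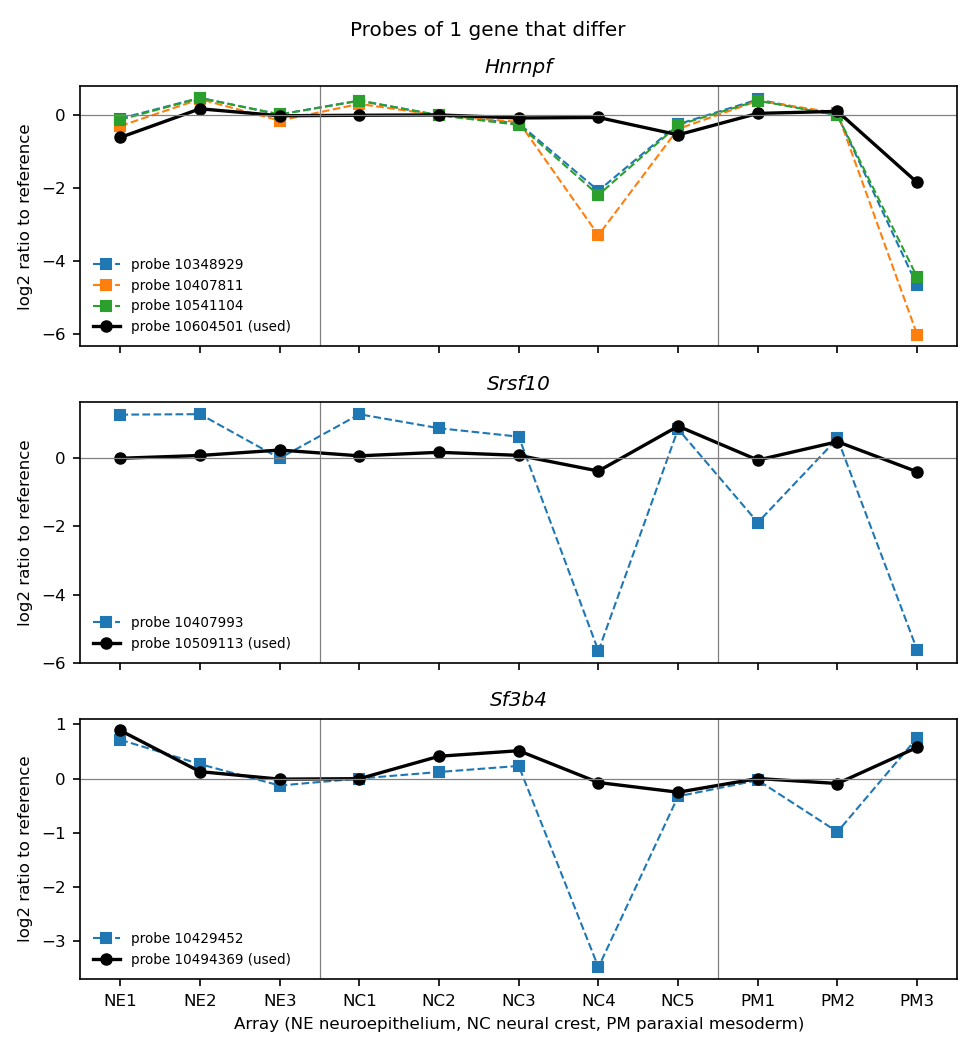
Log2 ratio on each array of the probe used (black line) and of the other probes (dashed lines) for Hnrnpf, Srsf10 and Sf3b4. The unused probes lie low on NC4, and for Hnrnpf and Srsf10 on PM3, where the probe used moved less.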

How the data were processed

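Mouse Gene ST arrays of 3 embryonic tissues were used, 11 in all. The deposited values are ratios on a linear scale; the submitters' processing notes name RMA and mm9, with no version. On 8 of the 11 arrays the median deposited ratio was 1, and each probe's reference behaved as a median over these 8 and 1 array not analysed here. Ratios carry no signal intensity, so precision is limited by the number of arrays. Of 35557 probes 6701 were blank, 21789 carried 1 symbol, 1621 several and 5446 none; 17 probes with several symbols, among them all those of Hnrnpa1, Hnrnpa3, Hnrnph3 and Snrpf, were left out.

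For this work the deposited ratios were turned to log2 with no pseudocount, and each gene was represented by its probe of highest mean. All 61 genes matched RefSeq by Entrez identifier with no change of symbol. Tissue means were fitted with limma 3.58.1 in R 4.3.3 (lmFit, eBayes without trend, all 11 arrays, no covariate), with Benjamini-Hochberg adjustment over 19938 genes and a threshold of 0.05. The fit was also run on simulated data, with normally spread noise and known shifts added to all crest arrays. Those data lacked the single-array excursions seen here, so the run does not check the fit under them. Genes were named by rule: the 5 largest differences each way per comparison, those whose groups did not overlap, the 10 widest and 5 narrowest ranges, and the extremes of each list; others were added to complete a complex or a family. The genes and lists were chosen with earlier results of these data known. Same-numbered arrays were not paired: over 9 pairs of the same number, the correlation of deviations ran from -0.153 to 0.0505. Alternatives covered the probe chosen, a filter, scaling, a floor of 0.1, the variance trend, only the groups compared, a replicate block, and leaving out each array.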

Additional observations from a re-analysis of the deposited data

Results flagged for a closer look

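All 61 genes were tested for an array far from the other 4 of the 5 neural crest arrays. Such an array was found for 16 (26.2%), against 15% of all 19938 genes by the same rule; in a single group of normally spread values chance gives about 1 in 20. In 9 of the 16 it was NC1, as the lowest array. These were Snrpe at a log2 ratio of -6.64, Snrpb2 at -5.94, Snrpa1 at -5.88, Hnrnpdl at -5.06, Prpf38a at -4.86, Hnrnpu at -4.08, Sf3b5 at -3.91, Snrpa at -3.74 and Hnrnpc at -2.81. NC4 was the lowest array for Hnrnph1 (-4.44), Hnrnpll (-2.45) and Srsf3 (-1.59). Sf3a3 was highest on NC2, at 5.76, and Srsf5 on NC5, at 3.84. Within 2-fold of their reference, Hnrnpa2b1 was highest on NC5, at 0.436, and Hnrnpf was lowest there, at -0.537.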

How the results depend on the processing

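In 710 of 713 alternative values, the 34 differences of single genes named above kept their direction. The exceptions came from leaving out an array: Prpf6 ran from -2.71 to 0.23 for crest and from -2.69 to 0.25 for mesoderm against neuroepithelium (without NE2), and Snrpa1 from -0.42 (without PM3) to 2.97 for crest minus mesoderm. Prpf4 was called without PM3 and in no other setting, so leaving out 1 array gave 0 to 1 of the 61 genes called for crest minus mesoderm, for mesoderm minus neuroepithelium and for the F test. Without PM3, 43 of all 19938 genes were called for crest minus mesoderm and 39 for mesoderm minus neuroepithelium. The number of all genes called by the F test without PM3 is not given here.

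Over all genes, the number called for crest minus neuroepithelium (6) was 2 with a variance trend over the mean log2 ratio, which is no intensity. It was 11 with only those groups, and 5 to 19 with an array left out (19 without NE2). For crest minus mesoderm (2) it was 0 with the trend and 1 to 43, and for mesoderm minus neuroepithelium (3) it was 5 with only those groups and 3 to 39, both highest without PM3. The counts of the 61 genes with groups apart ran from 3 to 8, 0 to 8 and 3 to 14 with an array left out, as the share of all genes ran from 2.98% to 8.09%, 2.66% to 7.90% and 6.85% to 18.5%, and the second was 1 with the mean of the probes or the probe with the lowest mean. The median difference of the 61 genes ran from -0.048 to 0.11, -0.21 to 0.13 and -0.022 to 0.11 with an array left out. For crest minus mesoderm it was -0.25 over genes at least 2-fold off on an array and -0.11 with the mean of the probes, and for mesoderm minus neuroepithelium 0.17 with that filter. The cause of these changes was not tested, beyond the smaller number of arrays or genes.

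With the replicate number as a block, 6, 3 and 2 genes were called and 0 of the 61, with median differences of 0.04, -0.01 and 0.09; the arrays share only a number. No scaling moved the median of all genes by over 0.1. With ratios and no intensities, the lowest values, at 0.01, cannot be told from lower ones.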

Other observations

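Probes that list several genes were left out of the set above. Of the 5 probes that list Hnrnpa1 with 3 other symbols, 4 were low on NE1 (0.0203 to 0.0449), NC4 (0.0186 to 0.0519) and PM3 (0.0136 to 0.0200). These 4 lay between 0.969 and 1.74 on the other 8 arrays. The remaining probe was at 0.518, 0.411 and 0.349 on NE1, NC4 and PM3, at 1 on NC1 and between 16.8 and 38.3 elsewhere. Snrnp27, a tri-snRNP gene on a probe of its own, was low on NE1, NC4 and PM3, at 0.0248, 0.0411 and 0.0404. Of the 9 probes that list Hnrnpa3 with 1 other symbol, 6 were high on NE3 (6.89 to 19.6) and PM2 (12.6 to 23.6), and 5 of these 6 also on PM1 (4.12 to 8.29; the other at 3.86). The remaining 3 stayed below 2 on these arrays. The probe shared by Hnrnph3 and Aff3 was at 44.5 on NC2 and between 0.913 and 1.16 elsewhere, and signal from these genes cannot be told apart on it.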
